A study of Arabidopsis thaliana with 14 samples.

Results

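The comparison described here set seedlings of the bzr1-1D mutant against seedlings of the wild type Col-0 when both had grown with diphenyleneiodonium (DPI), an inhibitor of NADPH oxidases and other flavoenzymes. It rests on 6 of the 14 RNA-Seq samples of the series, 3 of bzr1-1D DPI and 3 of Col-0 DPI, and on the 23571 of 24350 listed genes for which both DPI means were given. The mutant, in the Columbia ecotype, has a dominant allele that makes the transcription factor BZR1 more active, and no other line stands for that genotype. Every group of the series, the mock groups included, grew on medium with 2 µM propiconazole (PPZ), an inhibitor of brassinosteroid (BR) synthesis, in the dark for 6 days, and the DPI groups received 1 µM DPI in addition. The mock groups (3 samples of each genotype in the labels) and bzr1-1D with DPI plus 0.3 mM H2O2 (2 samples) are given beside the DPI values where they bear on a gene. The supplementary descriptions of the study give 5 days in place of 6.

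The values are the authors' group means, taken here as FPKM (fragments scaled by transcript length and by library size) from their size and scaling. Single samples are not analysed here. The means therefore come without SD, test or p-value, and the read depth behind each is unknown. Both DPI means have decimals that fit 3 libraries, as does Col-0 mock. The decimals of bzr1-1D mock, for which the labels list 3 samples, and of bzr1-1D DPI plus H2O2 fit 2 libraries. A gene was counted as higher or lower when the ratio of the means was at least 2-fold after adding 1 FPKM to each, that is, a log2 ratio of 1 or more or of -1 or less. Whether any ratio exceeded the spread between replicates was not tested. Values of 0.01 FPKM are the lowest in the tables and stand for genes without signal, and no fold is given against them.

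Brassinosteroids are steroid hormones that promote the elongation of plant cells, which in the dark makes the hypocotyl long. They bind the receptor kinase BRI1 at the cell surface, and the signal inactivates the GSK3 kinase BIN2, so that BZR1 and its relative BES1 lose their phosphate groups and act on genes in the nucleus. BZR1 represses genes of BR synthesis and activates many genes of cell wall loosening and of auxin and gibberellin response. The bzr1-1D protein is stabilised and gives a BR response where the hormone is scarce, as on PPZ. NADPH oxidases of the RBOH family make superoxide, from which H2O2 forms. The contrast asks which genes differ between the mutant and the wild type when DPI is present.

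Under DPI, 1409 genes (5.98% of 23571) were at least 2-fold higher in bzr1-1D and 503 (2.13%) at least 2-fold lower. The counts of list members given below are to be read beside these shares. In mock, measured in other libraries, 7.21% of 23144 genes were at least 2-fold higher and 4.29% at least 2-fold lower. Of the 1407 higher genes with mock values, 93.5% were higher in mock as well and 49.4% reached 2-fold there. Of the 502 lower genes with mock values, 82.7% were lower in mock and 50.8% reached 2-fold. Of the genes with a mean of 1 FPKM or more, called or not, 74.1% had the same sign in both treatments. Read from the mock side, 41.7% of the genes at least 2-fold higher in mock and 25.7% of those at least 2-fold lower passed the same limit under DPI. Ratios of at least 4-fold were found for 175 higher and 103 lower genes, and of at least 8-fold for 29 and 41.

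**Figure D1:**
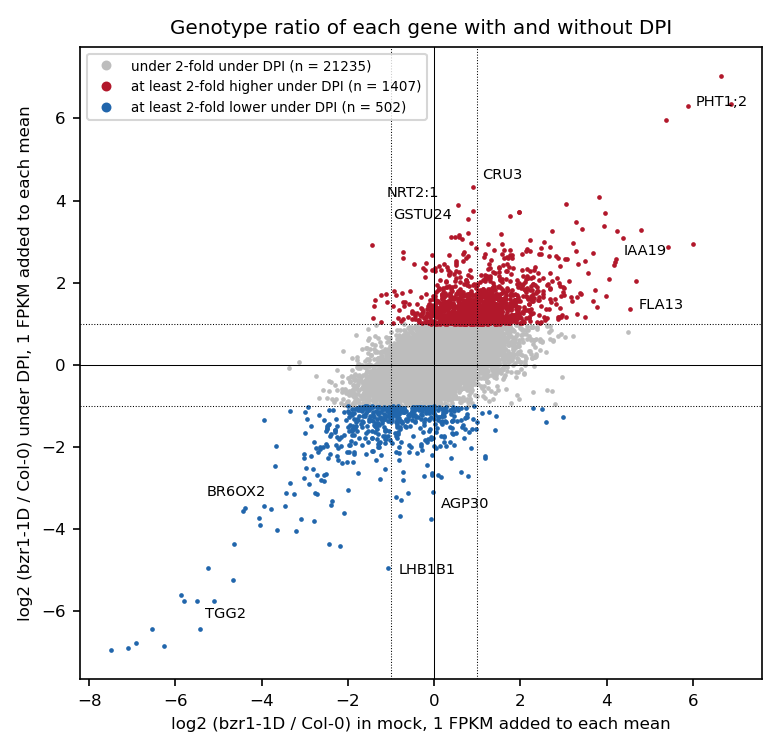
Each point is a gene, plotted by its log2 ratio of bzr1-1D over Col-0 in mock (x axis) and under DPI (y axis), after adding 1 FPKM to each of the authors' means; dotted lines mark 2-fold. Most red points (1407 genes at least 2-fold higher under DPI) lie right of zero and most blue points (502 lower) left of it, while AGP30 and GSTU24 lie near or within the 2-fold lines of the mock axis.

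The median gene was slightly higher in bzr1-1D, while the most abundant genes leaned the other way. Among the 17694 genes whose mean reached 1 FPKM the median log2 ratio was 0.17 under DPI and 0.12 in mock. Relative to that median gene, 951 genes were at least 2-fold higher and 719 at least 2-fold lower, so that the share of higher genes among all called genes was 56.9% in place of 73.7%. The ratios and list medians given below are those of the means, and some list medians are also given relative to the median gene. The median log2 ratio was 0.04 for genes under 1 FPKM, 0.23 between 1 and 10 FPKM and 0.12 between 10 and 100 FPKM. It was below zero for abundant genes, at -0.07 for the 1026 genes between 100 and 1000 FPKM and at -0.11 for the 69 genes above. The 10 most abundant genes made up 16.1% of the summed means in Col-0 DPI and 13.0% in bzr1-1D DPI, and the sums themselves were 730988 and 709794 FPKM. Just inside the limit stood GBF2, with 7.72 FPKM in the wild type and 16.4 FPKM in the mutant, and just outside it PIP1;5, with 177 and 88.1 FPKM.

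Among genes whose mean reached 10 FPKM, the 12 highest ratios belonged to a mixed set. AT1G24388 and AT1G24390, overlapping genes of unknown function on opposite strands of chromosome 1 (8648099-8648694 and 8648201-8648995), had 142 and 62.3 FPKM in bzr1-1D DPI and 0.09 and 0.01 FPKM in Col-0 DPI. AT1G27580, an F-box gene, had 100.07 FPKM against 0.23 FPKM, and AT1G50290 had 80.0 against 3.78 FPKM. In mock the same genes showed the same contrast, with 108.9, 46.5, 118.6 and 94.4 FPKM in bzr1-1D and at most 5.77 FPKM in Col-0. AT1G25112 and AT1G25025 carried identical values in every group (99.2 FPKM in bzr1-1D DPI and 6.63 FPKM in Col-0 DPI) and cannot be told apart. AT5G26970 had 19.3 and 1.05 FPKM. The other members of this set, PHT1;2, NRT2:1, CRU3, SESA2 and GSTU24, are described with their families.

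The 12 lowest ratios were dominated by genes that were nearly without signal in bzr1-1D in both treatments. Neighbours of each other on chromosome 4 between 11844243 and 11857313 made up 5 of them. They were AT4G22475, AT4G22485, AT4G22495, AT4G22505 and AT4G22510, annotated as lipid-transfer, transmembrane or hypothetical proteins and overlapping in 2 pairs on opposite strands, with 73.8 to 170 FPKM in Col-0 DPI and 0.31 to 1.12 FPKM in bzr1-1D DPI. AT5G28919 and AT5G28920, which overlap on opposite strands, had 151 and 130 FPKM in Col-0 DPI and 0.29 and 0.20 FPKM in bzr1-1D DPI. AT5G42825 went from 174 to 0.41 FPKM, AT5G57785 from 186 to 2.48 FPKM and AT5G26270 from 42.1 to 0.15 FPKM. TGG2, a myrosinase that hydrolyses glucosinolates, had 55.2 FPKM in Col-0 DPI and 0.04 FPKM in bzr1-1D DPI, with 45.8 and 0.03 FPKM in mock. AT5G15420 had 30.0 FPKM in Col-0 DPI and stood at 0.01 FPKM in bzr1-1D, as it did in mock.

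A gene was at 0.01 FPKM in 1 genotype in both treatments and at 1 FPKM or more in both groups of the other genotype in 31 cases. Of these, 20 were without signal in bzr1-1D and 11 in Col-0, among them the phosphate transporter genes PHT1;2 and PHT1;3. They lay on chromosome 1 (9 genes), chromosome 3 (4) and chromosome 5 (18), with none on chromosomes 2 and 4. The share of genes called in either direction was 8.11% over the whole table. In the window of 1 Mb that starts at 17 Mb on chromosome 5, chosen after its value was seen, it was 18.1%, with 25 genes higher and 14 lower of 215. Higher shares were found in 4 windows that held only 7 to 18 genes each. In the window that starts at 28 Mb on chromosome 1, which holds BZR1 itself, it was 6.77% of 251 genes.

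The BZR1 transcript (AT1G75080) had 34.7 and 35.7 FPKM under DPI, a log2 ratio of 0.04, and 35.9 and 50.7 FPKM in mock. bzr1-1D alters the protein, so the level of the transcript does not check the label. BES1, the closest relative, was lower in bzr1-1D DPI, with 29.7 FPKM against 63.8 FPKM in Col-0 DPI (log2 ratio -1.08, and -0.34 in mock). BEH3, another member of the family, was higher, with 5.08 against 1.98 FPKM. The other parts of the BR signalling pathway lay within 2-fold. The receptor gene BRI1 had 64.0 FPKM in Col-0 DPI and 75.9 FPKM in bzr1-1D DPI, its co-receptor BAK1 had 42.3 and 64.1 FPKM, and the kinase gene BIN2 had 181 and 226 FPKM. In all, 1 of 21 signalling genes was at least 2-fold higher and 1 lower, with a median log2 ratio of 0.22, or 0.05 relative to the median gene. Relative to the median gene BEH3 no longer reached 2-fold.

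The lowest ratios of the BR pathway were found for a pair of synthesis genes. DWF4, which encodes a hydroxylase of BR synthesis, had 10.5 FPKM in Col-0 DPI and 1.69 FPKM in bzr1-1D DPI (log2 ratio -2.10), and 15.5 and 5.15 FPKM in mock. BR6OX2, which encodes the C-6 oxidase that makes brassinolide, had 27.6 and 2.88 FPKM under DPI (-2.88) and 53.5 and 4.34 FPKM in mock. CPD, another cytochrome P450 of the pathway, was lower by less than 2-fold, with 199 FPKM in Col-0 DPI and 112 FPKM in bzr1-1D DPI. DWF1, which acts upstream on sterols, had 370 FPKM in Col-0 DPI and 319 FPKM in bzr1-1D DPI. Of 12 genes of synthesis 2 were at least 2-fold lower and none higher, with a median of -0.17.

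Of the 7 genes that inactivate BR, 2 were at least 2-fold higher and none lower, with a median of 0.80. CYP72C1, a P450 that lowers BR levels, had 4.16 FPKM in Col-0 DPI and 12.2 FPKM in bzr1-1D DPI, and 5.60 and 21.8 FPKM in mock. DOGT1 (UGT73C5), a glucosyltransferase that acts on brassinosteroids and on the fungal toxin deoxynivalenol, had 16.9 and 50.7 FPKM under DPI, whereas in mock it was lower in bzr1-1D (5.81 against 3.28 FPKM). BAS1, a further P450 of inactivation, had 1.92 and 4.09 FPKM under DPI. CYP72C1 and BAS1 thus had the same order in both treatments and DOGT1 opposite orders.

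Promoter windows of 300 bases, from 250 bases before to 50 bases after the gene start in the RefSeq annotation of TAIR10.1, were read for the genes of BR synthesis with the lowest ratios and for higher genes of auxin, drought and respiration. They show where the letters known to be bound by BZR1 occur. Capitals mark CGTGTG or CGTGCG (the BR response element), CACGTG (the G-box, also bound by PIF factors) and CATGTG (an E-box) on either strand. Each window is written 5′ to 3′ on the strand of the gene.
IAA19 (chr3:5263751-5264050, plus strand): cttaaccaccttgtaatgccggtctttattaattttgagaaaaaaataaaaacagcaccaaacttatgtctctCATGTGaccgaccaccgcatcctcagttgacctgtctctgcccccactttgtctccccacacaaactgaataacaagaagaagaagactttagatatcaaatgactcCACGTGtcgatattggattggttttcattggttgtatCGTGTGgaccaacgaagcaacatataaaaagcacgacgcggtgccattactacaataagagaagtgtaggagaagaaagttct
LTI78 (chr5:21240467-21240766, plus strand): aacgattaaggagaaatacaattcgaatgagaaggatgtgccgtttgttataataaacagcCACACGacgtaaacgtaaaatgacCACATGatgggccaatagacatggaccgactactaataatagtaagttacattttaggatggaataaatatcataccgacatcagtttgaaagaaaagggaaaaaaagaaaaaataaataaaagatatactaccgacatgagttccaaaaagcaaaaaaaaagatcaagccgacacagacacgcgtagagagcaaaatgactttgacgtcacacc
AOX1A (chr3:7906271-7906570, plus strand): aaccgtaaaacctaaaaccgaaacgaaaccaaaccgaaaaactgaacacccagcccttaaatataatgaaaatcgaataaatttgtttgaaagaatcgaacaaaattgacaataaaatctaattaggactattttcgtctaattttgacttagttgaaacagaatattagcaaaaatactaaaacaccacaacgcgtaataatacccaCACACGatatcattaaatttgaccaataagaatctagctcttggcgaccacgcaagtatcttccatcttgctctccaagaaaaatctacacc
CPD (chr5:1706899-1707198, minus strand): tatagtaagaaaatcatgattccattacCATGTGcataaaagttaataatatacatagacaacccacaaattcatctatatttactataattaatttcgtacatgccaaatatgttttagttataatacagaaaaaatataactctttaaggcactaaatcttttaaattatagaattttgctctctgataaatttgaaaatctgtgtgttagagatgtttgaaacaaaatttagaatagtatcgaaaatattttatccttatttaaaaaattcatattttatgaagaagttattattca
DWF4 (chr3:18817356-18817655, minus strand): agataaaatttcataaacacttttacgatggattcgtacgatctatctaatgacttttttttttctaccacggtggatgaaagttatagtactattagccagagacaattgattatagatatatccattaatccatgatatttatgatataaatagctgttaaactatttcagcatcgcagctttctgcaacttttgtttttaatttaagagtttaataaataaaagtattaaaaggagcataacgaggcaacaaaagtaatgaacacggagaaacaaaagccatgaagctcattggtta
BR6OX2 (chr3:11810476-11810775, plus strand): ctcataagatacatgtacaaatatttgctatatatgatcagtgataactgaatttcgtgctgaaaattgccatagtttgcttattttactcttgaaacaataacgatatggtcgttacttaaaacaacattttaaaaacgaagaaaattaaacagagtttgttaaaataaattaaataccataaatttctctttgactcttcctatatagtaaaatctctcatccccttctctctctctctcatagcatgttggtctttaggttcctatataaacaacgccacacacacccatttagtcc
IAA19 held each of the 3 kinds, with first bases at -177, -70 and -33 from the gene start, and was the only printed window with a G-box. LTI78 held a BR response element at -189 and an E-box at -165, AOX1A a BR response element at -42 and CPD an E-box at -222. The windows of DWF4 and BR6OX2, the genes of BR synthesis with the lowest ratios, held none of these letters, which says nothing of sites outside 300 bases. The printed windows are single examples and do not stand for their lists. Among other higher genes of drought and respiration, KIN1, PYL6, BCS1 and AT5G09570 held no BR response element, whereas ABI5 and AT2G21640 held 1 each.

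Over all genes with a window, the BR response element was found in 8.96% of 1407 windows of higher genes, 12.2% of 490 windows of lower genes and 8.49% of the 23368 windows of all measured genes. The G-box was found in 9.10%, 6.53% and 8.43% and the E-box in 17.1%, 11.2% and 13.0%, in the same order. At least 1 of the 4 words was present in 29.8% of the higher, 27.1% of the lower and 25.6% of all windows. These shares are a description and were not tested.

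**Figure D2:**
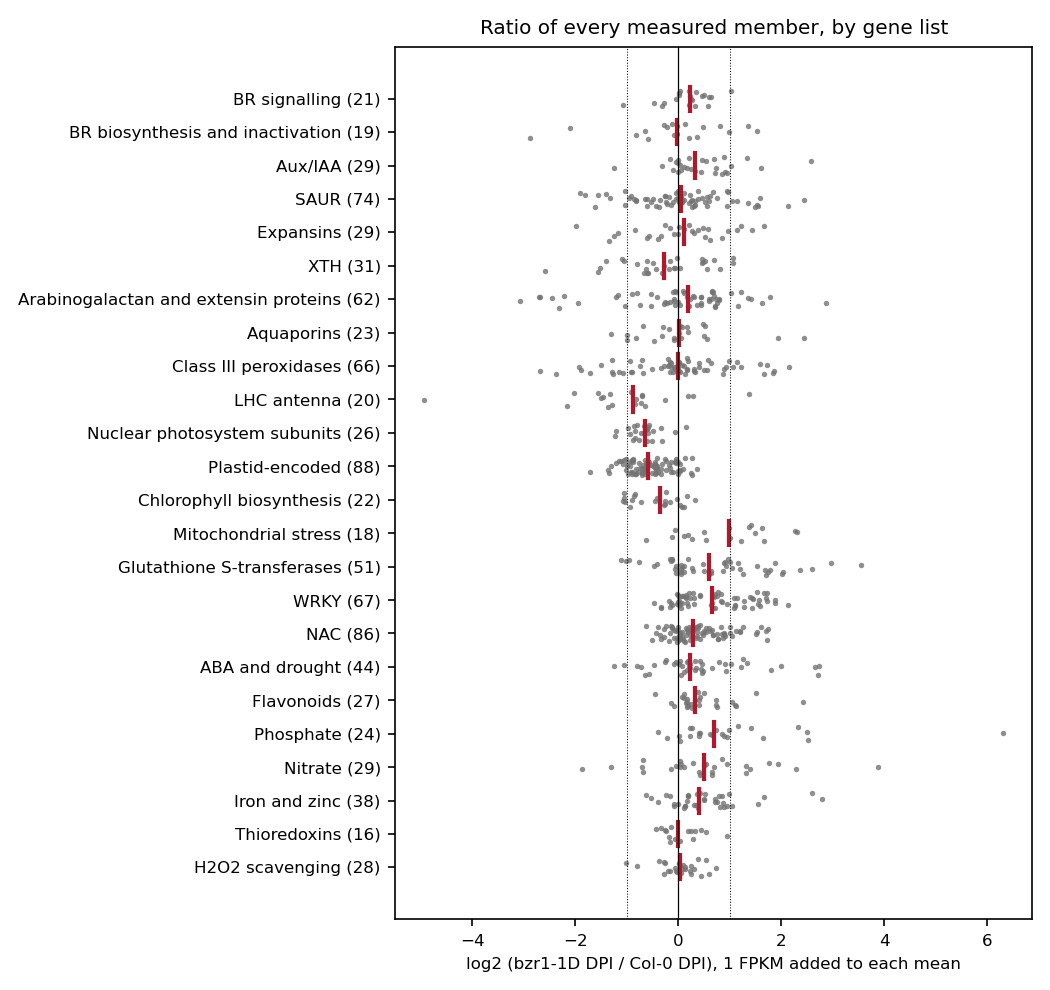
Each grey point is the log2 ratio of bzr1-1D DPI over Col-0 DPI of a member of the gene list named on the left, with the number of measured members in brackets; red bars are list medians and dotted lines mark 2-fold. The median lies at 0.99 for mitochondrial stress and 0.66 for WRKY, and at -0.88 for the LHC antenna, while growth lists such as SAUR (0.05) and expansins (0.10) centre near zero with members on both sides.

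Auxin response genes of the Aux/IAA family, which encode short-lived repressors that auxin itself induces, held some of the highest ratios of the growth lists. IAA19, which acts in hypocotyl growth, had 2.73 FPKM in Col-0 DPI and 21.3 FPKM in bzr1-1D DPI (log2 ratio 2.58). In mock IAA19 had 3.71 and 86.4 FPKM, and it had 66.6 FPKM in bzr1-1D DPI plus H2O2. SHY2 (IAA3) had 4.32 and 12.4 FPKM under DPI and 9.95 and 45.2 FPKM in mock, and ATAUX2-11 (IAA4) had 8.40 and 27.5 FPKM under DPI. For each of these the mean of bzr1-1D was lower with DPI than in mock, yet above both Col-0 means. In all, 4 of 29 Aux/IAA genes were at least 2-fold higher and 1, AT4G29080, lower, against 10 and 1 in mock. The list median was 0.32, or 0.16 relative to the median gene. TAA1, which makes the auxin precursor indole-3-pyruvic acid, had 5.47 and 13.5 FPKM, and DFL1, a GH3 enzyme that conjugates auxin, was lower in bzr1-1D, with a log2 ratio of -1.63. ARF6, an auxin response factor, had 35.0 and 29.8 FPKM.

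The SAUR family, small auxin-induced proteins that promote growth by acid extension, split in both directions. SAUR9 had 0.46 FPKM in Col-0 DPI and 6.94 FPKM in bzr1-1D DPI, and AT4G38860 had 0.22 and 2.59 FPKM. In the opposite direction AT3G12830 had 25.3 and 6.54 FPKM and AT1G56150 had 16.3 and 4.83 FPKM. Of 74 members, 9 were higher and 8 lower under DPI, against 32 and 9 of the same genes in mock, where the list median was 0.67 in place of 0.05. Relative to the median gene the list median under DPI was -0.11. SAUR15, which was at 0.01 FPKM in the wild type and 2.54 FPKM in the mutant in mock, had 0.09 and 0.18 FPKM under DPI, and 1.64 FPKM in bzr1-1D DPI plus H2O2.

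Among the growth-promoting bHLH proteins, KDR (PRE6) had 12.6 FPKM in Col-0 DPI and 84.3 FPKM in bzr1-1D DPI, with 13.9 and 92.6 FPKM in mock. Its relative PRE1, which counteracts inhibitory bHLH proteins, had 0.39 and 1.16 FPKM under DPI and 0.61 and 6.13 FPKM in mock. BS1 (PRE3) was in the other order, with 4.74 and 1.19 FPKM, as was BEE3 with 7.06 and 2.52 FPKM. PIF4, a light-regulated growth factor that pairs with BZR1, had 5.60 and 4.78 FPKM. Of 25 gibberellin genes 3 were at least 2-fold higher and 2 lower under DPI. GA3OX1, which makes the active hormone, had 4.04 and 21.4 FPKM under DPI and 6.32 and 29.5 FPKM in mock. It was the 1 gene called among 10 gibberellin oxidases. The gibberellin-regulated GASA genes had 2 of 7 members higher and 2 lower. GASA3 had 1.20 and 8.73 FPKM, and AT5G14920 had 1222 and 602 FPKM.

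Some cell wall genes were higher in bzr1-1D in both treatments, and 20 members of the wall lists were at least 2-fold lower under DPI. In mock, 8 of these 20 were lower and 12 higher in bzr1-1D, with 2 at least 2-fold lower and 3 at least 2-fold higher. Whether the treatments differ was not tested. FLA9, a fasciclin-like arabinogalactan protein, had 279 FPKM in Col-0 DPI and 649 FPKM in bzr1-1D DPI, with 227 and 1793 FPKM in mock. PRP2, a proline-rich wall protein, had 127 and 933 FPKM under DPI and 34.9 and 1544 FPKM in mock. EXPA8, an expansin that loosens walls, had 4.36 and 16.0 FPKM under DPI and 7.60 and 65.6 FPKM in mock. EXPA1 had 24.4 and 57.9 FPKM, and EXPA9, the most abundant expansin, had 144 and 321 FPKM. XTH30, which cuts and rejoins xyloglucan, had 34.4 and 72.8 FPKM under DPI and 69.8 and 181 FPKM in mock. These genes were above Col-0 in each treatment, with a smaller contrast under DPI in all but EXPA9. EXPA9 and XTH30 did not reach 2-fold relative to the median gene.

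Of the 20 lower genes, 13 had their highest mean in Col-0 DPI, 3 in Col-0 mock and 4 in bzr1-1D mock. Their selection favours Col-0 DPI and keeps bzr1-1D DPI from being the highest group, so the tally is a description only. The same tally was not made for other lower genes. PRP3, a proline-rich protein of root hairs, had 69.3 FPKM in Col-0 DPI and 9.76 FPKM in bzr1-1D DPI (log2 ratio -2.71). In mock it had 16.4 and 29.1 FPKM in the same order of genotypes. EXT10, an extensin that crosslinks in the wall, had 58.2 FPKM in Col-0 DPI and between 7.34 and 11.1 FPKM in each of the other groups. EXT6 had 45.6 and 6.26 FPKM under DPI, while in mock it had 9.36 and 8.94 FPKM. EXT13 had 12.7 and 1.77 FPKM under DPI and 3.38 and 1.48 FPKM in mock. XTH7 had 75.8 FPKM in Col-0 DPI and 11.7 FPKM in bzr1-1D DPI. XTH32 and XTH6 were the members at least 2-fold lower in mock as well, with 27.6 and 6.16 FPKM there for XTH32. AGP30, an arabinogalactan protein, was instead highest in mock, with 116 FPKM in the wild type and 113 FPKM in the mutant, and had 19.6 and 1.44 FPKM under DPI. Reads of extensins can be shared between near copies, so single values in that family are uncertain.

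Counted over the lists, extensins and proline-rich proteins had 7 of 13 members at least 2-fold lower and 2 higher under DPI (median -1.16), against none lower and 2 higher in mock. Arabinogalactan proteins had 6 of 49 higher and 3 lower, against 20 higher and 1 lower in mock. Expansins had 4 of 29 higher and 4 lower, against 8 and 1. The XTH family had 2 of 31 higher and 6 lower (median -0.27), against 9 higher and 3 lower in mock. Relative to the median gene none of the family was higher, 6 were lower and its median was -0.44. Aquaporins, which carry water across membranes, had 2 of 23 higher and 1 lower, against 9 and none. TIP2, the most abundant aquaporin, had 3161 FPKM in Col-0 DPI and 1587 FPKM in bzr1-1D DPI. Despite the counts, summed extensin signal was higher in bzr1-1D DPI (16611 FPKM, against 9653 FPKM in Col-0 DPI), and EXT4 alone had 11538 and 5697 FPKM.

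**Figure D3:**
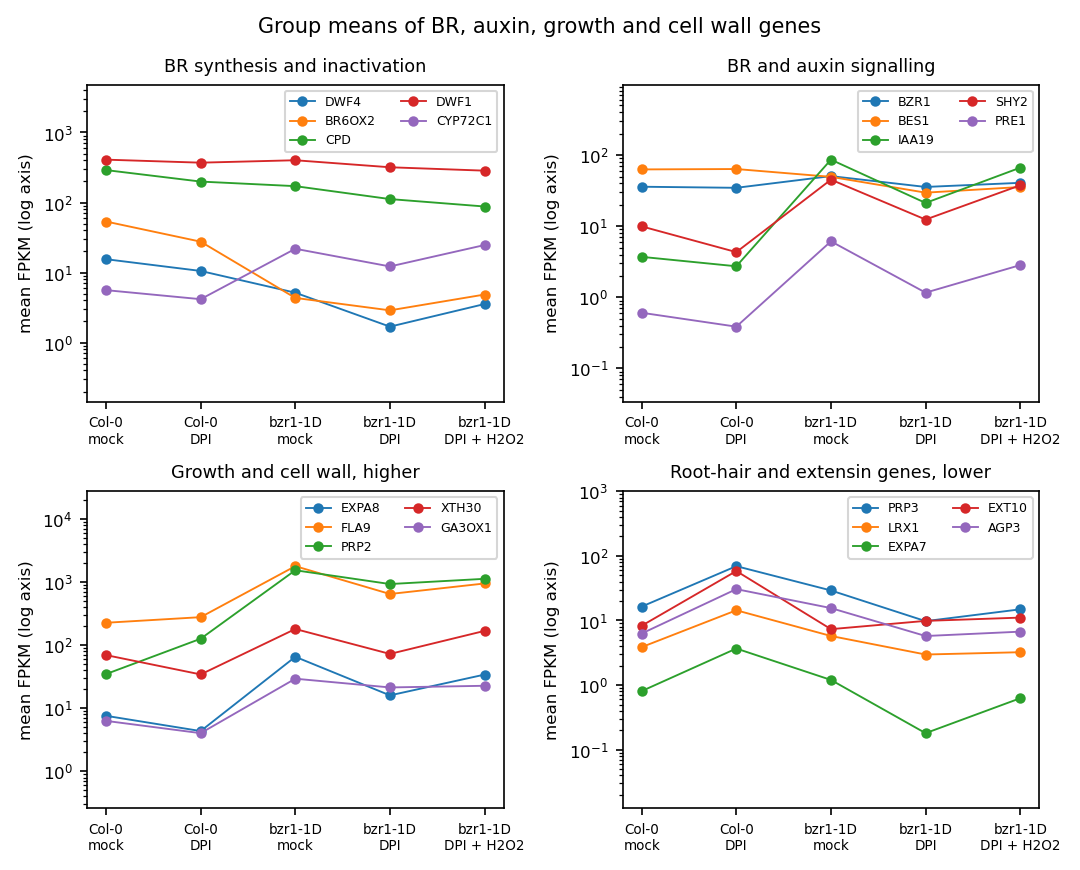
Points are the authors' mean FPKM on a log axis for the 5 groups named on the x axis, joined by lines for each gene. DWF4 and BR6OX2 are lower in each bzr1-1D group than in either Col-0 group, and IAA19 and EXPA8 are higher in each. The root-hair and wall genes in the last panel were picked from the lower genes and peak in Col-0 DPI. Of all 20 lower wall genes 13 did so.

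Markers of some other cell types differed as well, whereas none of 3 guard cell markers and none of 4 phloem and xylem markers was called. Of 4 shoot apex markers, 1 was at least 2-fold higher. Tissue was labelled as hypocotyl, and the root hair markers COBL9, EXPA7, EXPA18, LRX1, PRP3 and RSL4 summed to 92.5 FPKM in Col-0 DPI, 14.4 FPKM in bzr1-1D DPI, and, for the same genotypes in mock, 23.7 and 40.5 FPKM. Of the 6, 4 (EXPA7, EXPA18, LRX1 and PRP3) were at least 2-fold lower in bzr1-1D DPI, and these 4 also stand in the expansin and extensin lists. The defining regulator RSL4 was near 0 in all groups (0.07 to 0.64 FPKM). Endodermis markers were higher in bzr1-1D, with CASP1 at 28.5 FPKM in Col-0 DPI and 79.6 FPKM in bzr1-1D DPI, 4 of 6 at least 2-fold higher, and sums of 70.2 and 191 FPKM. Their sums in mock were 146 and 463 FPKM, in the same order. Markers of the root meristem (PLT1, PLT2, WOX5 and RGF3) were at 0.07 to 0.54 FPKM in the mock and DPI groups. In whole tissue, fewer cells of a type and less RNA per cell cannot be told apart, and the part of these markers in the cell wall counts was not tested.

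None of the 5 RBOH genes and 1 of 28 scavenging genes (3.57%) passed 2-fold, against 8.11% of all genes. Class III peroxidases, which also use H2O2, are described apart. RBOHD, an NADPH oxidase of stress signalling, had 3.49 FPKM in Col-0 DPI and 7.95 FPKM in bzr1-1D DPI, just under the limit (log2 ratio 1.00 after rounding), and RBOHF had 1.79 and 2.24 FPKM. The other RBOH genes measured (RBOHA, RBOHB and RHD2) also had higher means in bzr1-1D, and all 5 were above the median gene. None of the 5 passed 2-fold after 1 FPKM was added, which damps the ratios of genes with low means. Without the added 1 FPKM the ratio of RBOHD was 2.28. Catalase 3 (AT1G20620), which breaks down H2O2 and was the most abundant gene of its list, had 4168 FPKM in Col-0 DPI and 2059 FPKM in bzr1-1D DPI (-1.02), and 5272 and 4158 FPKM in mock. It was the 1 gene called among 28 scavenging genes, whose means summed to 7057 FPKM in Col-0 DPI and 4545 FPKM in bzr1-1D DPI. Most of that difference came from catalase 3, and the list median was 0.04. Superoxide dismutases summed to 1707 and 1159 FPKM, and peroxiredoxins with glutathione peroxidases to 449 and 503 FPKM. None of 16 thioredoxin genes was called, and TRX5, a thioredoxin h that reduces oxidised proteins, had 16.1 and 14.3 FPKM.

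Class III peroxidases, secreted enzymes that use H2O2 in the wall, had 9 of 66 members higher and 11 lower, against 16 and 4 in mock. Their shares under DPI were 13.6% higher and 16.7% lower, beside 5.98% and 2.13% of all genes. AT2G18150 had 3.46 FPKM in Col-0 DPI and 18.8 FPKM in bzr1-1D DPI, and AT5G66390 had 27.8 and 85.0 FPKM. AT3G21770 had 39.1 and 6.75 FPKM, and AT1G05250 had 10.1 and 0.72 FPKM. The list median was -0.00, or -0.17 relative to the median gene, with members on both sides.

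Several genes that respond to impaired mitochondrial respiration had higher means in bzr1-1D DPI than in Col-0 DPI and both mock groups. AOX1A, the alternative oxidase that lets electrons bypass the cytochrome pathway, had 48.5 FPKM in Col-0 DPI and 153 FPKM in bzr1-1D DPI (log2 ratio 1.64), against 17.9 and 26.6 FPKM in mock. AT2G21640, a marker of oxidative stress, had 37.2 and 188 FPKM under DPI and 14.5 and 18.4 FPKM in mock. The external and internal NAD(P)H dehydrogenase genes NDB4 and NDA1 had 2.85 and 0.79 FPKM in Col-0 DPI, 9.80 and 3.73 FPKM in bzr1-1D DPI, and at most 0.21 FPKM in mock. BCS1, a mitochondrial AAA protein, had 2.59 and 16.3 FPKM. AT5G09570, a small CHCH protein, had 17.6 and 58.2 FPKM under DPI and at most 0.38 FPKM in mock. For all of these but BCS1, both DPI means stood above both mock means.

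Of the 18 genes of this list, 9 were at least 2-fold higher in bzr1-1D DPI and none lower, with a median of 0.99, or 0.83 relative to the median gene. In mock 2 were higher and the median was 0.19. With the H2O2 supplement AOX1A had 155 FPKM and AT2G21640 297 FPKM in bzr1-1D. The transcription factor NAC13, which acts on such genes, had 12.5 and 26.0 FPKM and stood at the limit. DIC2, a mitochondrial carrier, was in the other order, with 43.5 FPKM in Col-0 DPI and 27.8 FPKM in bzr1-1D DPI.

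Glutathione S-transferases, which join glutathione to toxic compounds, were higher in bzr1-1D for 17 of 51 members and lower for 2, against 6 and 1 in mock. GSTU24 had 28.7 FPKM in Col-0 DPI and 345 FPKM in bzr1-1D DPI (log2 ratio 3.54), with 26.7 and 46.9 FPKM in mock and 544 FPKM in bzr1-1D DPI plus H2O2. GSTU25 had 35.4 and 149 FPKM, GSTU9 18.8 and 118 FPKM and GSTU12 0.46 and 10.4 FPKM. The higher members named were of the tau class, whereas DHAR1, a dehydroascorbate reductase of the same superfamily, had 167 and 76.3 FPKM. Summed over the family the means were 2173 FPKM in Col-0 DPI and 4233 FPKM in bzr1-1D DPI. The list median was 0.59, and 0.42 relative to the median gene.

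WRKY transcription factors, many of which act in defence and stress, were higher for 22 of 67 members and lower for none, against 13 and 1 in mock. WRKY11 had 15.7 FPKM in Col-0 DPI and 54.5 FPKM in bzr1-1D DPI, WRKY6 had 7.01 and 25.1 FPKM and WRKY25 had 4.37 and 16.6 FPKM. WRKY60 had 4.41 and 18.8 FPKM under DPI and 2.45 and 21.3 FPKM in mock. The median of the family was 0.66 under DPI and 0.45 in mock. NAC transcription factors were higher for 12 of 86 members and lower for none, with NAC053 at 7.31 and 25.9 FPKM and NAC046 at 3.88 and 15.3 FPKM, and the same number were higher in mock. None of 15 defence genes was called, beside 8.11% of all genes, and so small a list cannot show that defence genes were unchanged. PR4 had 63.1 and 50.4 FPKM.

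Genes of abscisic acid and drought were higher for 9 of 44 members and lower for 2. LTI78 (RD29A), a dehydration-induced protein, had 1.32 FPKM in Col-0 DPI and 14.1 FPKM in bzr1-1D DPI, and KIN1 had 2.16 and 20.1 FPKM. COR47, a dehydrin, had 15.8 and 65.7 FPKM under DPI and 53.1 and 405 FPKM in mock, and RD22 had 149 and 522 FPKM under DPI. PYL6, a receptor of abscisic acid, had 5.64 and 41.1 FPKM under DPI and 2.20 and 2.11 FPKM in mock. RCAR3, another receptor of the family, was in the other order, with 108 and 44.9 FPKM. The other lower member was the dehydrin gene AT5G66400, with 27.4 and 12.7 FPKM under DPI and 64.6 and 45.1 FPKM in mock. In mock 5 members were higher and none lower. The list median under DPI was 0.23, or 0.06 relative to the median gene.

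Flavonoid genes were higher for 5 of 27 members and lower for none under DPI, whereas in mock none was higher and 1 lower. Relative to the median gene 2 were higher, and FLS1, MYB111 and TT5 did not reach 2-fold. AT1G56650 (PAP1), a MYB regulator of anthocyanin, had 1.42 FPKM in Col-0 DPI and 11.9 FPKM in bzr1-1D DPI. F3H had 6.51 and 20.5 FPKM, FLS1, which makes flavonols, 8.47 and 19.7 FPKM and the chalcone isomerase gene TT5 12.4 and 26.4 FPKM. In mock these 3 enzyme genes were lower in bzr1-1D than in Col-0, with 2.72 and 1.27 FPKM for F3H. TT4, the chalcone synthase gene at the entry to the pathway, had 111 and 185 FPKM under DPI and 32.5 and 8.57 FPKM in mock. In bzr1-1D DPI plus H2O2 it had 57.1 FPKM and F3H 5.97 FPKM.

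**Figure D4:**
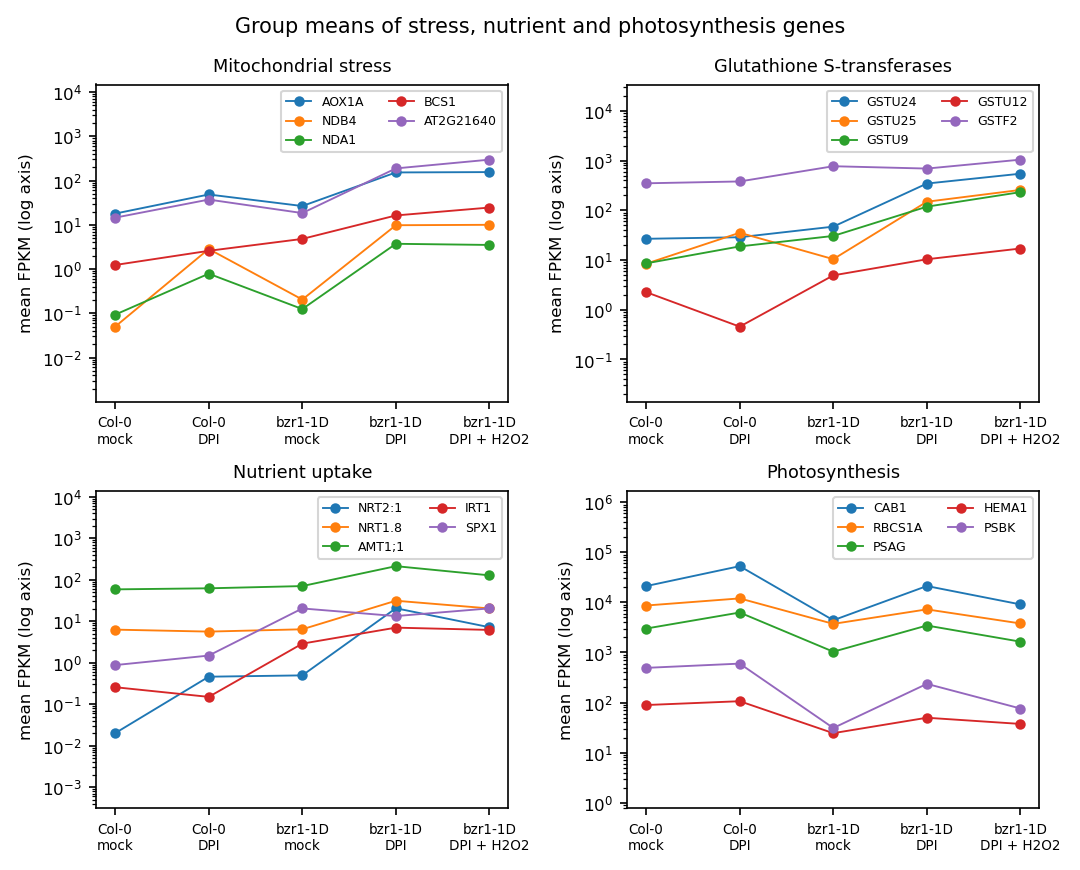
Points are the authors' mean FPKM on a log axis for the 5 groups named on the x axis, joined by lines for each gene. AOX1A reaches 153 FPKM and GSTU24 345 FPKM in bzr1-1D DPI, above both mock groups and Col-0 DPI, whereas CAB1 and the other 4 photosynthesis genes plotted are lower in bzr1-1D than in Col-0 in each treatment.

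Transport genes for nutrients were among the largest ratios. NRT2:1, the high-affinity nitrate transporter, had 0.46 FPKM in Col-0 DPI and 20.6 FPKM in bzr1-1D DPI, and 0.02 and 0.50 FPKM in mock. NRT1.8 had 5.63 and 31.3 FPKM under DPI and 6.28 and 6.40 FPKM in mock, and the ammonium transporter AMT1;1 had 62.3 and 213 FPKM under DPI. AMT1;2 was in the other order, with 4.34 and 0.45 FPKM, as was the asparagine synthetase gene ASN1, with 27.8 and 10.6 FPKM. Of 29 nitrogen genes 7 were higher and 2 lower.

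Phosphate genes were higher for 7 of 24 members and lower for none, against 9 and none in mock, with a median of 0.70. SPX1, which senses phosphate status, had 1.49 FPKM in Col-0 DPI and 13.3 FPKM in bzr1-1D DPI, and PAP17, an acid phosphatase, had 19.4 and 63.0 FPKM. The transporter gene PHT1;2 had 79.1 FPKM in bzr1-1D DPI and stood at 0.01 FPKM in both Col-0 groups. PHT1;1, a near-identical gene on chromosome 5, had 41.5 and 56.3 FPKM, and reads may be shared between them. Among 38 iron and zinc genes 5 were higher and none lower. IRT1, the iron uptake transporter of roots, had 0.15 and 7.01 FPKM and its regulator bHLH39 0.49 and 8.04 FPKM. In Col-0 mock bHLH39 had 6.57 FPKM.

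Most antenna and photosystem genes had lower means in bzr1-1D than in Col-0 in both treatments. CAB1, a chlorophyll a/b-binding protein of photosystem II and the most abundant gene of both DPI groups, had 52914.8 FPKM in Col-0 DPI and 21224.5 FPKM in bzr1-1D DPI (log2 ratio -1.32), against 21154.4 and 4400 FPKM in mock. LHCB4.2 had 1263 and 281 FPKM and LHCA3 1091 and 397 FPKM under DPI. Summed over the 20 genes of the light-harvesting antenna the means were 67772 and 30012 FPKM. Of these, 9 were at least 2-fold lower and 1 higher (median -0.88), against 10 and 1 in mock. The higher gene was CAB3, with 1167 and 3007 FPKM, which is nearly identical to CAB1 and CAB2. Because reads may be shared among such copies, the sum is firmer than each of the values.

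None of 26 nuclear photosystem subunit genes was above the median gene. Their median was -0.65 under DPI, with 2 at least 2-fold lower, and -1.32 in mock, with 20 lower. Relative to the median gene 8 were at least 2-fold lower under DPI. PSAG, a photosystem I subunit, had 6277 FPKM in Col-0 DPI and 3454 FPKM in bzr1-1D DPI, and PSBR of photosystem II had 2652 and 1151 FPKM. Of the 88 plastid-encoded genes, 12 were lower under DPI (24 relative to the median gene) and 54 in mock, and none was higher in either. PSBK had 599 and 236 FPKM under DPI and 493 and 31.0 FPKM in mock.

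Chlorophyll synthesis genes were lower for 4 of 22 members under DPI (8 relative to the median gene) and for 19 in mock. HEMA1, which encodes the glutamyl-tRNA reductase of the first committed step, had 106 FPKM in Col-0 DPI and 49.8 FPKM in bzr1-1D DPI, and 89.2 and 24.5 FPKM in mock. PORB, the light-dependent protochlorophyllide oxidoreductase that is abundant in the dark, had 2871 and 2389 FPKM under DPI and 2080 and 615 FPKM in mock. RBCS1A, the small subunit of Rubisco, had 12014 and 7256 FPKM under DPI. RBCS2B was in the other order, with 2863 and 6483 FPKM. The small subunit genes are near copies of each other, and their single values are uncertain.

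Seed storage transcripts were higher in bzr1-1D DPI for all 7 markers chosen. CRU3, a cruciferin, had 8.85 FPKM in Col-0 DPI and 197 FPKM in bzr1-1D DPI (log2 ratio 4.33), with 84.7 and 160 FPKM in mock. CRA1 had 9.82 and 81.3 FPKM under DPI but 156 and 56.6 FPKM in mock, and the oil body genes OLEO1 and OLEO2 had 3.04 and 5.92 FPKM in Col-0 DPI and 24.3 and 45.2 FPKM in bzr1-1D DPI. SESA2, a seed albumin, had 1.59 and 37.9 FPKM. The sums of the 7 were 30.5 FPKM in Col-0 DPI, 403 FPKM in bzr1-1D DPI, and 280 and 285 FPKM in mock, and most of each sum came from CRA1 and CRU3. CRU2, with 0.84 and 0.22 FPKM in Col-0 mock and DPI and 5.26 and 14.1 FPKM in bzr1-1D, was low in both Col-0 groups, as were SESA1 and SESA2. Such transcripts mark the stage of the embryo and early seedling. The part of seedling stage in the other ratios was not tested. ABI5, a factor that acts on seed genes, had 2.18 and 7.02 FPKM under DPI.

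Glucosinolate genes, which make and activate sulphur compounds of defence, were lower for 7 of 31 members and higher for 2. PYK10, a beta-glucosidase of endoplasmic reticulum bodies, had 1801 FPKM in Col-0 DPI and 699 FPKM in bzr1-1D DPI, and 2359 and 829 FPKM in mock. BCAT4, which starts the methionine-derived branch, had 10.2 and 0.14 FPKM under DPI and 0.82 and 0.07 FPKM in mock. MAM1 of the same branch had 4.35 and 0.33 FPKM, and CYP83A1 had 2.45 and 0.04 FPKM. CYP83B1, which acts in the tryptophan-derived branch, was in the other order, with 48.5 and 129 FPKM. The other higher member was FMO GS-OX4, a glucosinolate S-oxygenase gene, with a log2 ratio of 1.12. Of 24 synthesis genes 4 were lower and 2 higher, with a median of -0.03. Their means summed to 247 FPKM in Col-0 DPI and 366 FPKM in bzr1-1D DPI. Whether the branches differ was not tested.

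The 2 treatments gave opposite orders of at least 2-fold for 19 genes, of which 8 were higher under DPI and lower in mock, and 11 the reverse. UGT74E2, a glucosyltransferase of the auxin indole-3-butyric acid, had 28.5 FPKM in Col-0 DPI and 86.5 FPKM in bzr1-1D DPI, but 6.13 and 1.75 FPKM in mock. DTX1, a transporter that exports toxic compounds, had 25.5 and 84.7 FPKM under DPI and 9.10 and 3.29 FPKM in mock. In the reverse group AGP3 had 30.6 and 5.74 FPKM under DPI and 6.28 and 15.5 FPKM in mock. EXPA5, an expansin, had 8.11 and 3.04 FPKM under DPI and 4.82 and 11.6 FPKM in mock. UGT74E2 and DTX1 were named after their values were seen. The difference between the treatments was not tested for any of them.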

How the data were processed

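Total RNA of tissue labelled hypocotyl was sequenced on the BGISEQ-500 platform. According to the submitters' processing notes and the methods, reads were mapped with HISAT and Bowtie2 to TAIR10, the versions of both are not given in the sources used here, and pairs of groups were compared with NOISeq. The deposited tables hold, per gene, the mean of each group, a log2 ratio of the means, a NOISeq probability and a direction. The authors' own ratio, probability and direction columns and the filtered tables were not used, nor was a table that ends within a row. The unit of the deposited means is not named by the authors, and they were treated as FPKM, because of their size and scaling by gene length.

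From the means in 5 tables, log2 ratios were computed after adding 1 FPKM and called at 2-fold. No test was possible because the means carry no spread, so the tests planned for values per sample were replaced by this fold. How deeply each sample was sequenced, and so how precise each mean is, is unknown. Genes were matched to RefSeq TAIR10.1 by locus (23369 of 23571). Of the genes with coordinates in both, 100% overlapped on the same chromosome and strand and 69.8% had the same start. Promoter windows were read from that genome. The named genes are the 12 highest and 12 lowest ratios among genes whose DPI mean was 10 FPKM or more, in each of 42 lists the members past 2-fold (at most 6 in each direction) and the most abundant member, and the genes the study names. Other genes were chosen after their values were seen. The comparison, lists and motifs were chosen with earlier results of these data known. Alternatives were pseudocounts of 0.1 and 5 FPKM, centring, a fold of 1.5 and no pseudocount with or without a minimum of 1 FPKM. The ratio and call were run on simulated means with known folds and no noise, which checks the arithmetic and not the spread or low values. Python 3.11.15, numpy 2.4.6, pandas 2.3.3 and matplotlib 3.10.9 were used.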

Additional observations from a re-analysis of the deposited data

How the results depend on the processing

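The counts of genes depended on the treatment of low values and on the fold. With a pseudocount of 0.1 FPKM, 2996 genes were higher and 1126 lower, and with 5 FPKM 526 and 244. At a fold of 1.5 they were 3970 and 1427. Without a pseudocount they were 2435 and 766 with at least 1 FPKM in the higher group, and 4147 and 1869 with no filter. The causes were not tested. Centring gave 951 and 719. In settings chosen after the data were seen, leaving out genes at 0.01 FPKM in either group gave 1383 and 473, and rescaling to the sum without organelle-encoded and light-harvesting genes gave 1280 and 535. The direction of a called ratio could not change in these settings. A pseudocount keeps the order of the means, and centring (0.17 in log2) and rescaling move every ratio alike by too little to reverse a called one. Of the 250 named genes 69 no longer reached 2-fold with 5 FPKM added, 18 with centring and 4 with rescaling. The E-box share of higher genes was 14.9% at 1.5-fold in place of 17.1%, and its cause was not tested. Leaving out replicates was not run because the means hold no values per sample. No paired analysis was possible because the columns are group means and carry no replicate number. Group means of unknown depth limit the ratios of genes under about 1 FPKM most.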

Other observations

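Further families gave the following values, to be read beside 5.98% of all genes at least 2-fold higher and 2.13% lower. Very-long-chain fatty acid genes of the KCS family, which build wax and suberin, had 3 of 32 members at least 2-fold higher and 2 lower in bzr1-1D DPI. KCS12 had 6.88 FPKM in Col-0 DPI and 31.2 FPKM in bzr1-1D DPI, and KCS19 had 59.3 and 24.2 FPKM. Among 26 ethylene genes 2 were higher and 1 lower, all of them ACC synthase genes that make the precursor of ethylene. ACS2 had 1.25 and 12.3 FPKM, ACS7 5.19 and 15.6 FPKM and ACS11 9.66 and 0.08 FPKM. Of 26 clock genes 1 was higher, PRR3 with 1.25 and 5.33 FPKM, and 1 was lower, AT1G18330 with 4.35 and 1.27 FPKM. Of 49 genes of PIF and light signalling 1 was higher, PIL1 with 10.9 and 29.9 FPKM.

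Histone genes, of which many are expressed in dividing cells, had 1 of 29 members higher, HTB2 with 33.1 and 77.2 FPKM. Cellulose synthase and tubulin genes had 1 of 19 higher, TUB8 with 21.5 and 45.4 FPKM. No cytosolic heat shock gene of 11 was called, and HSP70 had 15.2 and 21.3 FPKM. Of the 114 mitochondrion-encoded genes 3 were higher and 1 lower, and the most abundant, ORF107A, had 85.0 and 72.4 FPKM.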
